A study of Mus musculus with 15 samples.

Results

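The 51 genes described here encode proteins that carry a cell from the end of DNA replication through mitosis and cytokinesis. They were chosen by name as a list of G2/M genes, with earlier results of these data known, and were found by Entrez identifier among the 36528 genes of the deposited tables. All 51 passed the filter on low counts, which kept 18751 genes. They fall into 10 classes by role: proliferation and chromosome structure (4 genes), mitotic entry (7), mitotic kinases (3), the chromosomal passenger complex (4), the spindle checkpoint (5), kinetochore and centromere (6), kinesin motors (7), spindle assembly (5), anaphase onset (4) and cytokinesis (6).

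Most of these genes are transcribed in a wave that peaks late in the cell cycle. In resting cells the DREAM complex, built on the MuvB core, holds them silent, and in cycling cells the same core works with B-MYB and then FOXM1 to activate them. A pair of short promoter elements recur among them, the cell cycle genes homology region (CHR), which the MuvB subunit LIN54 binds, and the CCAAT box, which NF-Y binds. Basal cell carcinoma is a skin tumour that depends on the Hedgehog pathway, and vismodegib inhibits the Hedgehog transducer SMO.

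The 15 libraries held polyA RNA of tumour cells sorted from the skin of mice bearing this carcinoma. All groups alike carried the conditional alleles Ptch1fl/fl and p53fl/fl, the inducible recombinase K14Cre-ER, which the keratin 14 promoter drives in basal keratinocytes, and the reporter Lgr5GFP. The groups were control (4 libraries, from mice that the series' design text calls untreated, though their titles carry an abbreviation, MCT, that the labels do not explain), vismodegib for 6 days (8 libraries) and vismodegib for 14 days (3 libraries). The labels give no age, no vismodegib dose and no gate for the sort, and they do not state whether each library was a different animal. The p-values therefore reflect only how much these libraries vary, which may be technical. In bulk RNA, fewer dividing cells and less of a transcript per cell cannot be told apart.

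By number, the submitters' sample identifiers formed 3 ranges, and no label names these as batches. In range A were controls 1 to 3 and 6-day replicates 1, 3, 4, 6 and 8, with 27336935 to 38657170 counts each. In range B were control 4 and 6-day replicates 2, 5 and 7, with 93183564 to 256569828 counts. Range C held only the 3 libraries at 14 days, with 119045864 to 162951666 counts, so range C and 14 days cannot be told apart. The summed level of 9 basal keratinocyte markers was 15082 to 24090 CPM (counts scaled to library size) in controls, 27030 to 43377 at 6 days and 34580 to 46729 at 14 days. Summed markers of fibroblasts, endothelium and lymphoid cells stayed at or below 23.9 CPM in every library, with Lum at 0 in all controls and Emcn at 0 in all controls and 6-day libraries.

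The promoters of 10 members are shown first, without a test of any link between their elements and the levels below. Each is read 5′ to 3′ from RefSeq promoters of GRCm38.p6, from 120 bases before the annotated start to 30 after it, on the gene's own strand. Capitals mark a CHR (TTTGAA or TTCGAA on either strand) or a CCAAT box (either strand). The first group holds cyclin B1, its partner kinase CDK1, Polo-like kinase 1, the ubiquitin-conjugating enzyme of the anaphase-promoting complex and Aurora kinase A.
Ccnb1 (chr13:100786457-100786606, minus strand): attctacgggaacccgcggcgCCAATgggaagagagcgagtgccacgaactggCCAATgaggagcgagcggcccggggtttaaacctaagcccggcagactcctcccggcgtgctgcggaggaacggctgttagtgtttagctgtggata
Cdk1 (chr10:69352883-69353032, minus strand): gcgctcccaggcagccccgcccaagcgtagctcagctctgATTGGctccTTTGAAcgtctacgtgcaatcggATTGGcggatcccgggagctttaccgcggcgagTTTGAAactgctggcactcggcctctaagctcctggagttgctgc
Plk1 (chr7:122159315-122159464, plus strand): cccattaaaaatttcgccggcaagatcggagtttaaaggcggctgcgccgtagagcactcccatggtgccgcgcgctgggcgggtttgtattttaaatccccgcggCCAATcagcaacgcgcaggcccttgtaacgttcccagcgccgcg
Ube2c (chr2:164769809-164769958, plus strand): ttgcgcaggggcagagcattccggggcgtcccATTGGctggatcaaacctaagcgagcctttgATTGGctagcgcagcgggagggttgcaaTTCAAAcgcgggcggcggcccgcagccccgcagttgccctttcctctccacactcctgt
Aurka (chr2:172370541-172370690, minus strand): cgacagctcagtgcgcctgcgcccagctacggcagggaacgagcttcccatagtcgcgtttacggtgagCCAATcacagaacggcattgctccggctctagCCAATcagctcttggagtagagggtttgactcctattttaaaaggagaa
The second group holds 3 genes that rose between 6 and 14 days: the centrosome kinase gene Nek2, the cytokinesis activator gene Ect2 and the central spindle gene Prc1.
Nek2 (chr1:191821353-191821502, plus strand): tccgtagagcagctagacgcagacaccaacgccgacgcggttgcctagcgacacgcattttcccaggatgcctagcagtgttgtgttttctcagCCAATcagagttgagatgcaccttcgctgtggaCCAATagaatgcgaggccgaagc
Ect2 (chr3:27153849-27153998, minus strand): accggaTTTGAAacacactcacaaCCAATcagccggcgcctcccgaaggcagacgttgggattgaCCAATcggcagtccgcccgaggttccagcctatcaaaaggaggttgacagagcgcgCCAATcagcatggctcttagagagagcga
Prc1 (chr7:80294331-80294480, plus strand): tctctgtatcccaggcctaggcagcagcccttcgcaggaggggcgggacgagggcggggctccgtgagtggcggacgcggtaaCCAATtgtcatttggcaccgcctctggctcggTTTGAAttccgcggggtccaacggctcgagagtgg
The last pair, the spindle checkpoint gene Bub3 and the securin gene Pttg1, are among the 3 members whose level ranged least over the libraries. Pttg1 was added to the display after its values were seen.
Bub3 (chr7:131560250-131560399, plus strand): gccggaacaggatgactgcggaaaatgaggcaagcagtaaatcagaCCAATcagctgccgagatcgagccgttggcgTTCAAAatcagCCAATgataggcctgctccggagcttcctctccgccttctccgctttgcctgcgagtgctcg
Pttg1 (chr11:43425952-43426101, minus strand): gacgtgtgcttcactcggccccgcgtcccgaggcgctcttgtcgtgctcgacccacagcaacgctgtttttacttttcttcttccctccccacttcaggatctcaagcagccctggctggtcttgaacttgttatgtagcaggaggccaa

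The stretch printed for Cdk1 holds 2 CHR and 2 CCAAT matches, and that for Pttg1 holds no match to either. Only TTTGAA and TTCGAA were searched as a CHR, so any other form of it went uncounted and unmarked. The stretch for Bub3, from 1 of its 2 listed starts, holds 1 CHR and 2 CCAAT matches, and the stretch for Ccnb1, which had the largest fold between 6 and 14 days, holds 2 CCAAT matches and no CHR. Promoters were found for 42 of the 51 members, in a window of 300 bases that runs from 250 before the start to 50 after it. A CHR was present in 32 of these 42, or 76.2%, against 16.6% of the other genes tested. CCAAT was present in 71.4% against 41.8%, at least 2 CCAAT matches in 47.6% against 15.2%, and both elements in 64.3% against 6.69%. Among 26 promoters of an S-phase list the CHR share was 19.2%, and among 38 promoters of other mitosis genes it was 65.8%. Of the 14 members that rose between 6 and 14 days, 11 had a promoter in the table, 8 with a CHR and 9 with CCAAT. Promoters of Pttg1, Nuf2, Kif18a, Nusap1, Melk, Mad2l1 and Birc5 held no match to either element in this window. Those of Plk1 and Aurka each held 1 CHR match. Its first base was 31 and 33 after the start, past the end of the stretches printed above. These shares are descriptions of letters near annotated starts, not of bound sites.

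Summed over the 51 genes, the mean level was 1906 ± 849.1 CPM in controls (SD, n = 4), 890.4 ± 314.6 at 6 days (n = 8) and 2626 ± 1679 at 14 days (n = 3), and the groups overlapped. By library it was 1981, 1718, 2991 and 934.3 CPM in controls 1 to 4. At 6 days it ran from 491.9 to 1378 CPM, with a median of 943.1. At 14 days it was 4474, 1195 and 2208 CPM in replicates 1 to 3. Control 4 therefore lay among the 6-day libraries, and 14-day replicate 2 lay below the highest of them, while 14-day replicate 1 was the highest of all 15.

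**Figure D1:**
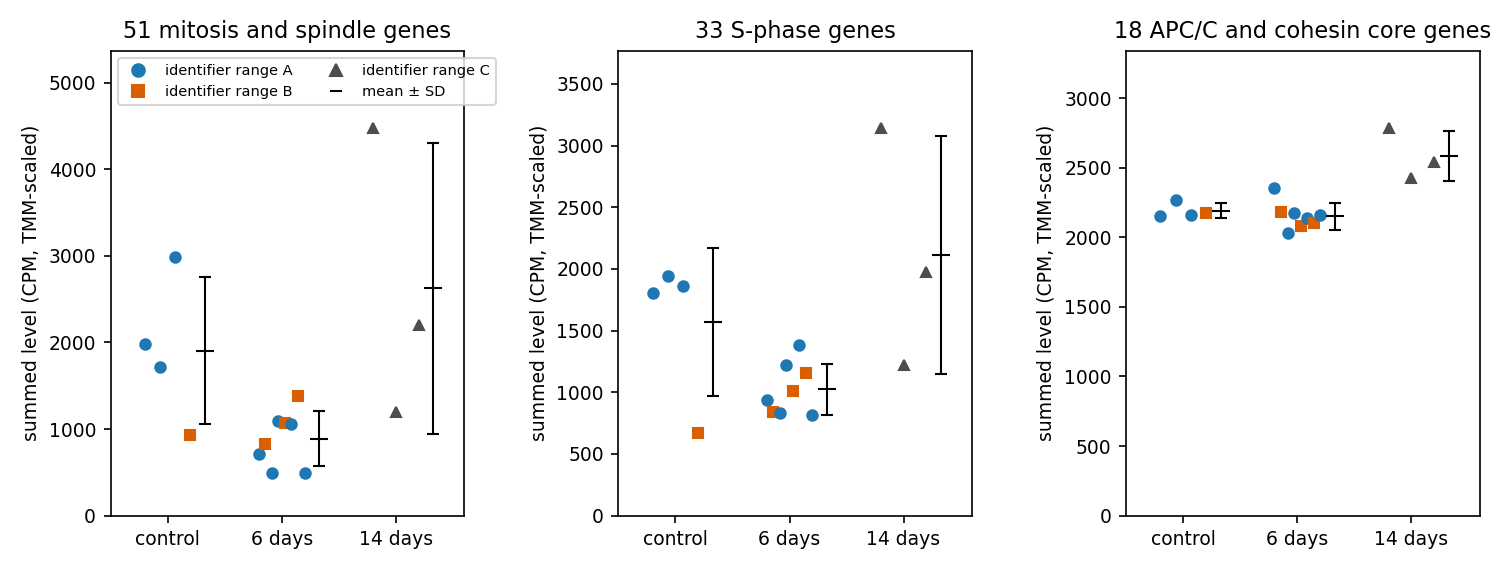
Summed TMM-scaled level (CPM, linear axis from 0) of the 51 mitosis and spindle genes, of 33 S-phase genes and of 18 genes of the anaphase-promoting complex and cohesin core, by group. Each point is a library, with its shape and colour giving the identifier range, and bars are the mean ± SD. The mitosis genes spread from 491.9 to 4474 CPM, while the 18 core genes stay between 2030 and 2784 CPM.

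Members tended to be high or low in the same libraries. Counting how many of the 51 lay above their own median over the 15 libraries gave 49, 46, 51 and 5 in controls 1 to 4. At 6 days the counts were 4, 0, 1, 11, 15, 15, 39 and 1 in replicates 1 to 8, and at 14 days they were 50, 20 and 50. Control 4 was the lowest control for 48 members. Replicate 1 was the highest of the 14-day libraries for 50 members and the highest of all 15 for 44, and replicate 2 was the lowest of the 14-day libraries for all 51.

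**Figure D2:**
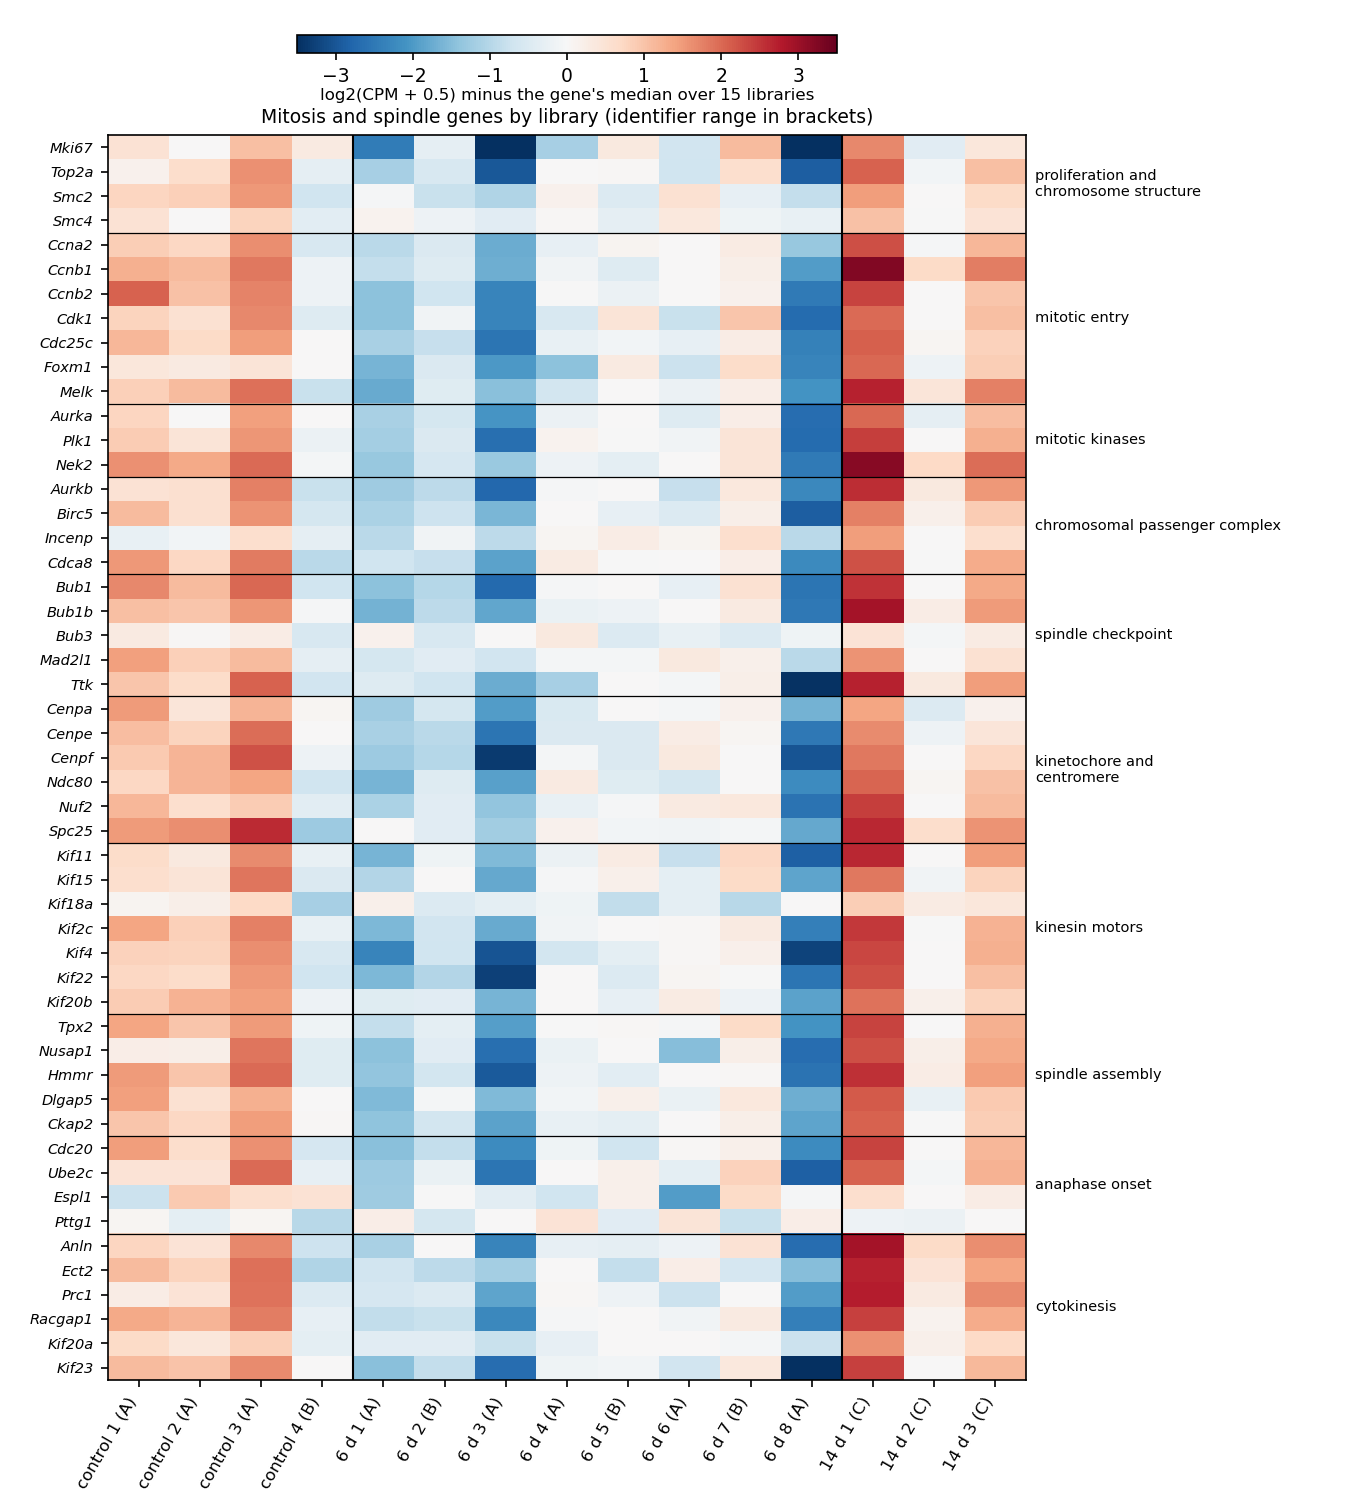
Level of each of the 51 members (rows, by role) in each of the 15 libraries (columns, with the identifier range in brackets), as log2(CPM + 0.5) minus the gene's median over the libraries; values beyond the colour scale take its end colour. The 14-day replicates 1 and 3 and controls 1 to 3 are mostly red, 6-day replicates 3 and 8 mostly blue, and Bub3, Pttg1, Smc4 and Kif18a are pale throughout.

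Members differed widely in how far they ranged. The ratio of the highest to the lowest library was 2.09 for Bub3, 2.69 for the condensin gene Smc4, 2.73 for Pttg1 and 4.25 for the kinesin gene Kif18a. It was 31.6 for the median member and 78.8 for Mki67, the gene of the proliferation antigen Ki-67. On the scale per transcript length, the deposited RPKM, the order of levels in controls began with Bub3 (46.0 ± 11.6, SD, n = 4), Cdc20 (29.8 ± 16.8), Ccnb2 (23.4 ± 13.4) and Cenpa (22.4 ± 9.96). It ended with Nuf2 (3.19 ± 1.31), Ccnb1 (3.04 ± 1.59) and Kif15 (2.66 ± 1.94). The controls of Bub3, from 29.9 to 55.6 RPKM, overlapped those of Cdc20, from 9.80 to 45.7 RPKM, and the last 3 genes likewise overlapped each other.

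The first comparison asks how the treated cells stood against controls after 6 days. Of the 51 members, 50 had a lower mean at 6 days and 1, Pttg1, a higher one, and the median log2 fold change was -1.45, against 0.03 over all genes tested. No member passed the test: edgeR's quasi-likelihood test called 0 of 51, with 1.26% of all genes called and 0.773% called lower. At an unadjusted p under 0.05 there were 38 of 51, against 12.7% of all genes, and DESeq2 called 15 lower, against 2.55%. The lowest adjusted p was 0.087, for the kinetochore gene Spc25 (log2 fold change -2.07 ± 0.55, SE). By log2 fold change the next lowest were Hmmr (-2.01 ± 0.61) and the checkpoint kinase gene Bub1 (-2.01 ± 0.68). For 0 members did the 6-day libraries all lie above or all below the controls, as 1.22% and 1.47% of all genes did.

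This count depended on the identifier range. Within range A, with 5 libraries at 6 days and 3 controls, 10 members were called lower (1.59% of all genes were): Ccna2, Cdk1, Cenpa, Ect2, Foxm1, Kif20a, Mad2l1, Melk, Nek2 and Spc25. The median log2 fold change there was -2.13, and for 45 of the 51 every 6-day library lay below every control (6.56% of all genes did so), a count made after the values by range were seen. Within range B, where 3 libraries at 6 days met a single control, 0 members were called by edgeR (0.633% of all genes were called lower), 1 had an unadjusted p under 0.05 against 19.8% of all genes, and the median was 0.23. Leaving out control 4 alone gave 3 members called lower (0.758% of all genes), Ect2, Mad2l1 and Spc25, and leaving out all range B libraries gave 6 (1.4% of all genes): Cdk1, Cenpa, Foxm1, Melk, Nek2 and Spc25. With range B as a covariate edgeR called 0 lower (2.58% of all genes), with a median of -1.61. In that fit 46 members had an unadjusted p under 0.05, as had 3631 of all 18751 genes, against 2377 without the covariate.

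The difference between the ranges was tested as an interaction, range B minus range A. It was positive for all 51 members, with a median of 2.42 on the log2 scale against 0.05 over all genes, but edgeR called 0 of 51 (0.059% of all genes were called). Over the members it ran from 0.04 to 3.82. Every value of this difference rests on control 4, the only control of range B.

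**Figure D3:**
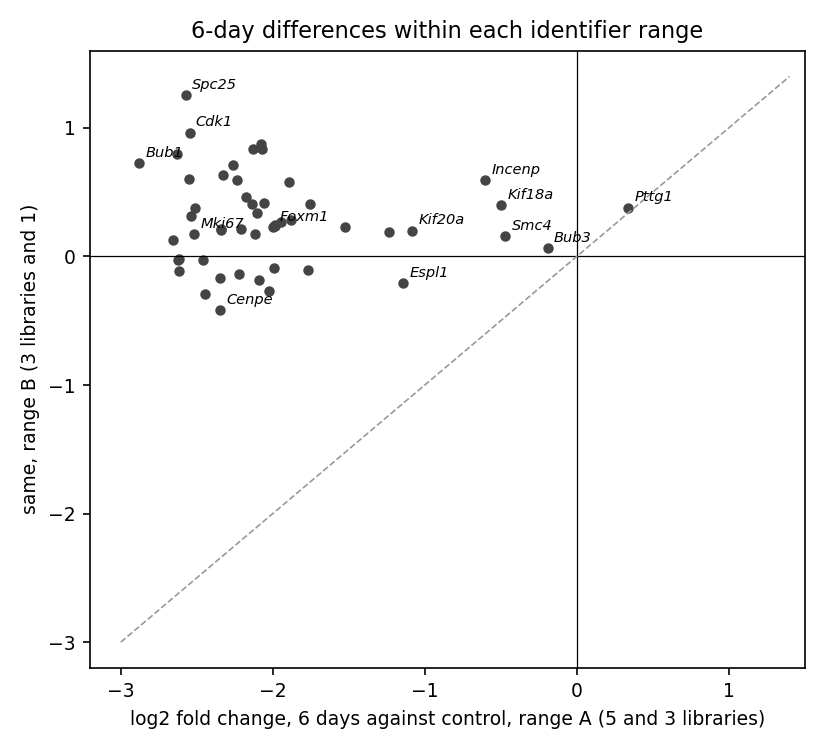
Log2 fold change of each member at 6 days against control within identifier range A (horizontal, 5 against 3 libraries) and within range B (vertical, 3 libraries against 1). Each point is a gene and the dashed line marks equal values. Apart from Pttg1, all members are below 0 in range A, and 13 of the 51 are below 0 in range B.

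Among genes of proliferation and chromosome structure, Mki67 showed the split by range most plainly. Its level was 79.8, 55.7 and 117.1 CPM in the range A controls and 70.0 in control 4. In the range A libraries at 6 days it was 9.73, 2.28, 24.8, 35.03 and 3.21 CPM, and in those of range B it was 45.0, 71.3 and 121.2 CPM. The range A libraries were all below every control, and the range B libraries spanned the controls. At 14 days Mki67 stood at 179.8, 42.0 and 73.0 CPM. Top2a, which encodes the topoisomerase that untangles sister chromatids, went from 109 ± 66.6 CPM in controls to 46.1 ± 31.8 at 6 days and 160 ± 109.5 at 14 days (SD, n = 4, 8 and 3). At 6 days against control the log2 fold change was -1.04 ± 0.77 (SE) for Mki67, and -1.06 ± 0.37 and -0.36 ± 0.22 for the condensin genes Smc2 and Smc4.

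Among the 6-day libraries themselves, range B against range A, 4 members were called higher: Mki67 (log2 fold change 2.41), Cdk1 (1.92), Foxm1 (1.82) and the spindle motor gene Kif11 (1.54). Pttg1 (-0.89), Kif18a (-0.67) and Bub3 (-0.55) were called lower. That is 7 of 51, in a contrast where 32.5% of all genes were called, 16.9% higher and 15.6% lower, so the share was below the background.

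Mitotic entry is set by cyclins A and B with CDK1, by the phosphatase CDC25C, which activates CDK1, and by the transcription factor FOXM1. All 7 members of the class had lower means at 6 days, and 3, Ccna2, Ccnb1 and Melk, rose between 6 and 14 days. The plainest case was Ccnb1, the gene of cyclin B1. Its controls stood at 8.81, 7.87, 13.6 and 2.94 CPM, and its 6-day libraries ran from 0.498 to 3.95 with a median of 2.37 CPM. At 14 days it stood at 36.4, 5.70 and 13.1 CPM, above every 6-day library. The fold between 14 and 6 days was 8.14 (log2 3.03 ± 0.58, SE, adjusted p = 0.0167), and the log2 change at 6 days against control was -1.88 ± 0.55 (adjusted p = 0.125).

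Melk, the gene of a kinase that peaks in mitosis, rose 6.14-fold between 6 and 14 days (adjusted p = 0.0285) and was at 46.6, 9.20 and 24.1 CPM at 14 days against at most 8.03 CPM at 6 days. Ccna2, which encodes cyclin A2, rose 3.56-fold (adjusted p = 0.0453), but its 6-day range of 9.99 to 42.8 CPM overlapped 14-day replicate 2, at 33.8 CPM. Cdk1 was at 25.9, 21.8, 48.8 and 10.8 CPM in controls, at 1.85 to 9.86 CPM in range A at 6 days and at 13.5, 20.3 and 29.3 CPM in range B. Its 3.08-fold difference between 14 and 6 days was not called (adjusted p = 0.160). Foxm1 had the most even controls of the class, 31.1, 29.5, 32.4 and 23.7 CPM, and ran from 4.40 to 13.8 CPM in range A and from 16.4 to 37.1 CPM in range B at 6 days.

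The mitotic kinases drive centrosome separation and spindle assembly. Nek2, whose kinase splits the centrosomes, had the second largest rise of all members between 6 and 14 days, 7.41-fold (adjusted p = 0.0177). Its controls stood at 24.2, 20.2, 32.1 and 7.29 CPM, its 6-day libraries ran from 0.968 to 10.6 with a median of 5.44 CPM, and its 14-day libraries stood at 74.1, 12.8 and 31.6 CPM. No 14-day library overlapped the 6-day range. Plk1 differed 4.16-fold and Aurka 3.64-fold between 14 and 6 days, with adjusted p-values of 0.0771 and 0.0751.

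The chromosomal passenger complex corrects faulty attachments of chromosomes to the spindle and then directs cytokinesis. Its kinase gene Aurkb rose 5.47-fold between 6 and 14 days (adjusted p = 0.0416), from a 6-day range of 1.69 to 18.3 CPM to 86.8 and 41.7 CPM in 14-day replicates 1 and 3, while replicate 2 lay just inside the 6-day range. Birc5, the gene of survivin, differed 3.35-fold (adjusted p = 0.0771). Incenp, the scaffold gene of the complex, moved little at 6 days (log2 fold change -0.17 ± 0.34, SE), with 30.1, 33.9, 54.5 and 28.8 CPM in controls and 18.4 to 54.6 CPM at 6 days.

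Spindle checkpoint proteins hold back anaphase until every kinetochore is attached. Bub1b, the gene of BUBR1, rose 5.99-fold between 6 and 14 days (adjusted p = 0.0253), from 14.3 ± 8.70 CPM (SD, n = 8) to 169.9, 26.2 and 62.0 CPM. Its highest 6-day library, at 27.3 CPM, lay above 14-day replicate 2. Mad2l1, the gene of MAD2, was at 36.1, 23.6, 28.7 and 10.4 CPM in controls and at 6.47 to 16.7 CPM at 6 days, and it was one of the 10 called lower within range A. Bub3 stayed level, at 117 ± 29.6 CPM in controls, 102 ± 23.8 at 6 days and 135 ± 25.0 at 14 days, and no comparison between groups called it.

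At the kinetochore, Ndc80, Nuf2 and Spc25 belong to the complex that grips microtubules, and Cenpa encodes the centromeric histone. Spc25 had the lowest log2 fold change at 6 days of all members. Its controls stood at 17.2, 19.0, 38.1 and 2.10 CPM, and its 6-day libraries ran from 1.30 to 6.53 with a median of 5.34 CPM. Control 4 was below 7 of the 8 libraries at 6 days, and the other 3 controls were above all 8. At 14 days Spc25 stood at 38.7, 9.16 and 18.3 CPM, a 4.87-fold rise over 6 days (adjusted p = 0.0449). Ndc80 went from 11.97 ± 6.10 CPM in controls to 4.04 ± 2.54 at 6 days and 16.4 ± 11.1 at 14 days (SD), a 4.04-fold difference between the last 2 that was not called (adjusted p = 0.0627). Cenpa, Cenpe and Cenpf were the 3 lowest members at 14 days against control, with log2 fold changes of -0.35 ± 0.56, -0.28 ± 0.69 and -0.23 ± 0.80 (SE), each smaller than its error.

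Of the 7 kinesin motor genes none was called in a comparison between groups, although all 7 had unadjusted p-values under 0.05 between 14 and 6 days and a median log2 fold change of 2.13. Kif11, the motor that pushes spindle poles apart, stood at 114.5, 17.9 and 50.6 CPM at 14 days, against 2.02 to 29.7 CPM at 6 days. Its 4.57-fold difference had an adjusted p of 0.0619, and that of Kif22, a chromosome-arm motor gene, was 4.44-fold with 0.0685. Kif18a, whose motor limits chromosome movement at the spindle equator, ran from 10.3 to 23.6 CPM at 6 days and stood at 38.5, 25.6 and 27.7 CPM at 14 days, without overlap.

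Of the 5 spindle assembly genes, 2 rose between 6 and 14 days, Hmmr by 5.54-fold (adjusted p = 0.0464) and Ckap2 by 3.58-fold (adjusted p = 0.0451). Hmmr, a microtubule-binding protein of the spindle poles, stood at 26.9, 18.5, 38.3 and 6.76 CPM in controls, at 0.770 to 9.47 CPM at 6 days and at 56.3, 11.2 and 25.7 CPM at 14 days. Tpx2, which activates Aurora A at the spindle, differed 3.64-fold (adjusted p = 0.0649).

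Anaphase begins when CDC20 and the anaphase-promoting complex mark securin and cyclin B for destruction and separase is freed. Ube2c, the gene of the conjugating enzyme, was at 15.9 ± 12.3 CPM in controls, 6.24 ± 4.63 at 6 days and 20.8 ± 13.9 at 14 days (SD, n = 4, 8 and 3), and its 3.33-fold difference between the last 2 was not called (adjusted p = 0.161). Cdc20 rose 4.49-fold between 6 and 14 days (adjusted p = 0.0446), from 19.4 ± 11.4 CPM (SD, n = 8) to 161, 31.1 and 69.6 CPM. Pttg1, the gene of securin, differed from most members within range A, where its log2 fold change was 0.34. There its 5 libraries at 6 days stood at 48.4 to 67.0 CPM and its range A controls at 50.4, 38.2 and 50.5 CPM. In range B it stood at 24.5 CPM in control 4 and at 27.9 to 36.6 CPM at 6 days, and at 14 days it was at 43.0, 42.0 and 48.4 CPM. Espl1, the gene of separase, differed by a log2 value of 0.55 ± 0.43 (SE) between 14 and 6 days.

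Cytokinesis had the most calls of any class, 4 of 6 genes higher at 14 than at 6 days. Anln, which encodes the ring scaffold anillin, rose 5.82-fold (adjusted p = 0.0340), from 3.32 to 34.0 CPM at 6 days to 183.8, 38.2 and 75.0 CPM. Prc1, which bundles the central spindle, rose 5.60-fold (adjusted p = 0.0222), and its 14-day libraries at 189.9, 34.8 and 89.3 CPM were all above the highest 6-day library, at 28.7 CPM. Ect2, the exchange factor that activates RhoA at the furrow, rose 5.35-fold (adjusted p = 0.0207), and Kif20a, a central spindle motor, 2.38-fold (adjusted p = 0.0284). Racgap1, the partner of ECT2, had an adjusted p of 0.05003 at 4.21-fold and was not called.

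**Figure D4:**
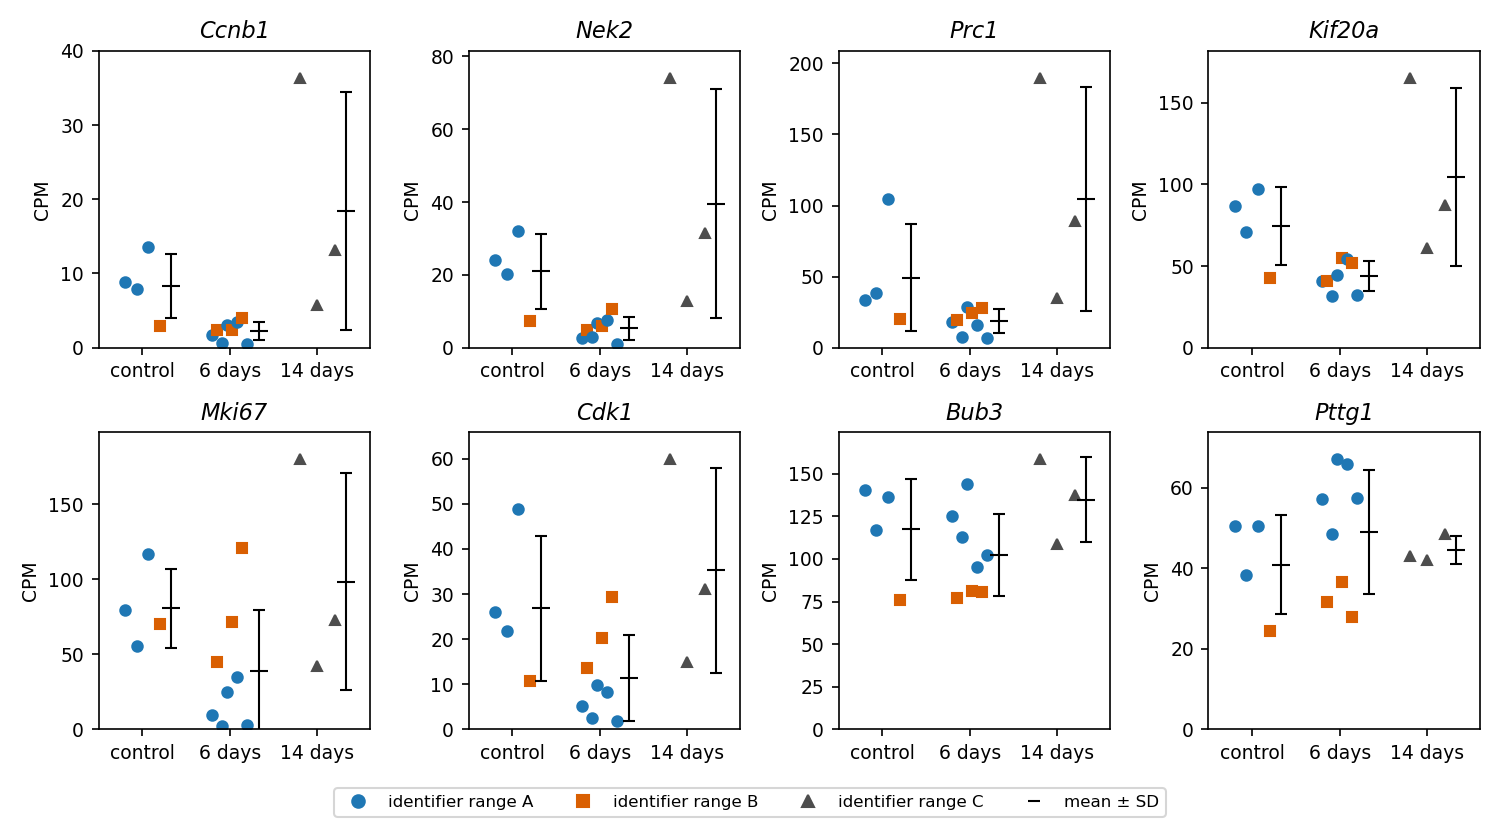
Level (TMM-scaled CPM, linear axes from 0) of 8 members in each library by group, with shape and colour giving the identifier range and bars the mean ± SD, cut at 0. Ccnb1, Nek2, Prc1 and Kif20a are higher in every 14-day library than in any 6-day one, Mki67 and Cdk1 are higher in range B than in range A at 6 days, and Bub3 and Pttg1 vary by 2.09-fold and 2.73-fold from lowest to highest library.

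The comparison of 14 with 6 days held all the calls among members in the main groups. Of 51, edgeR called 14 higher and 0 lower, against 2.14% of all genes called higher and 3.89% called in either direction. They were Anln, Aurkb, Bub1b, Ccna2, Ccnb1, Cdc20, Ckap2, Ect2, Hmmr, Kif20a, Melk, Nek2, Prc1 and Spc25. In all, 50 of 51 had a higher mean at 14 days, with a median log2 fold change of 1.88 against -0.06 over all genes, and 47 had an unadjusted p under 0.05 against 23.1%. For 12 members every 14-day library was above every 6-day library, which held for 5.42% of all genes: Anln, Ccnb1, Ect2, Hmmr, Kif18a, Kif20a, Melk, Nek2, Nusap1, Prc1, Spc25 and Ttk.

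The number of calls depended on which 14-day library was left out. Without 14-day replicate 1, or without replicate 3, 0 of 51 were called by edgeR, with 16 and 47 members at an unadjusted p under 0.05. Calls were lost over all genes too: without replicate 1, 0 of 19343 genes were called higher and 10.5% had an unadjusted p under 0.05, and without replicate 3 these shares were 0.0723% and 15.7%. Without replicate 2, 25 members were called (2.5% of all genes). Without replicate 1 the median log2 fold change was 1.19. Fewer were called without control 2 (8) or 3 (13), or without 6-day replicates 1 or 5 (7 each), 2, 3 or 4 (8 each), 8 (9) or 6 (10). In those fits 151 to 311 genes were called higher, of 18595 to 19858 tested, against 402 of 18751 in the reported fit. More members were called without control 4 (24, with 3.32% of all genes). Ccnb1, Nek2, Ect2, Prc1, Bub1b, Kif20a and Melk were called in 13 of the 15 fits that left out 1 library. Leaving out all range B libraries gave 29 calls (3.74% of all genes), range B as a covariate 24 (5.33%) and DESeq2 37 (5.71%).

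Markers of some other cell types differed between libraries too. The summed level of 9 myeloid markers was 7.23 to 16.4 CPM at 6 days and 34.2 to 73.7 CPM at 14 days, with Adgre1 at 0 in all 6-day libraries, and 8.05 to 68.7 CPM in controls. For 6 suprabasal keratinocyte markers it was 6281, 329.2 and 1962 CPM in 14-day replicates 1 to 3, against 371.6 to 1383 CPM at 6 days. This was the same order of replicates as for the summed mitosis genes. The myeloid sum, at 73.7, 34.2 and 52.6 CPM in 14-day replicates 1 to 3, had that order too. So had the basal keratinocyte, sebocyte and fibroblast sums. In controls 1 to 4 the suprabasal sum was 1743, 302.5, 395.7 and 377.5 CPM, another order than that of the mitosis genes. The myeloid sum was highest in control 3 (68.7 CPM) and next in control 1 (42.7 CPM), as the mitosis genes were. It was lowest in control 2 (8.05 CPM), whereas the mitosis genes were lowest in control 4. Melanocyte and Schwann markers summed to 49.8, 367.2 and 272.1 CPM in 14-day replicates 1 to 3, the reverse of the order of the mitosis genes. The part of any of these markers in the mitosis values was not tested.

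Against control, cells at 14 days showed no called difference in any member. EdgeR and DESeq2 each called 0 of 51, with 6.6% of all genes called by edgeR and 5.92% higher and 8.76% lower by DESeq2, and 0 members had an unadjusted p under 0.05 against 23.3% of all genes. The log2 fold change was positive for 46 members and negative for 5, with a median of 0.45. The highest were Anln (1.25 ± 0.72, SE), Ccnb1 (1.15 ± 0.71) and Prc1 (1.09 ± 0.63). The direction rested on 1 library, since the median was -0.21 without 14-day replicate 1, and it was 0.83 without replicate 2, 0.79 without control 3 and 0.19 without control 4. The intervals are wide, so the data do not show that the groups were alike. The comparisons share libraries: the same 14-day libraries enter both of the last comparisons, and the same 6-day libraries the first and the second.

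**Figure D5:**
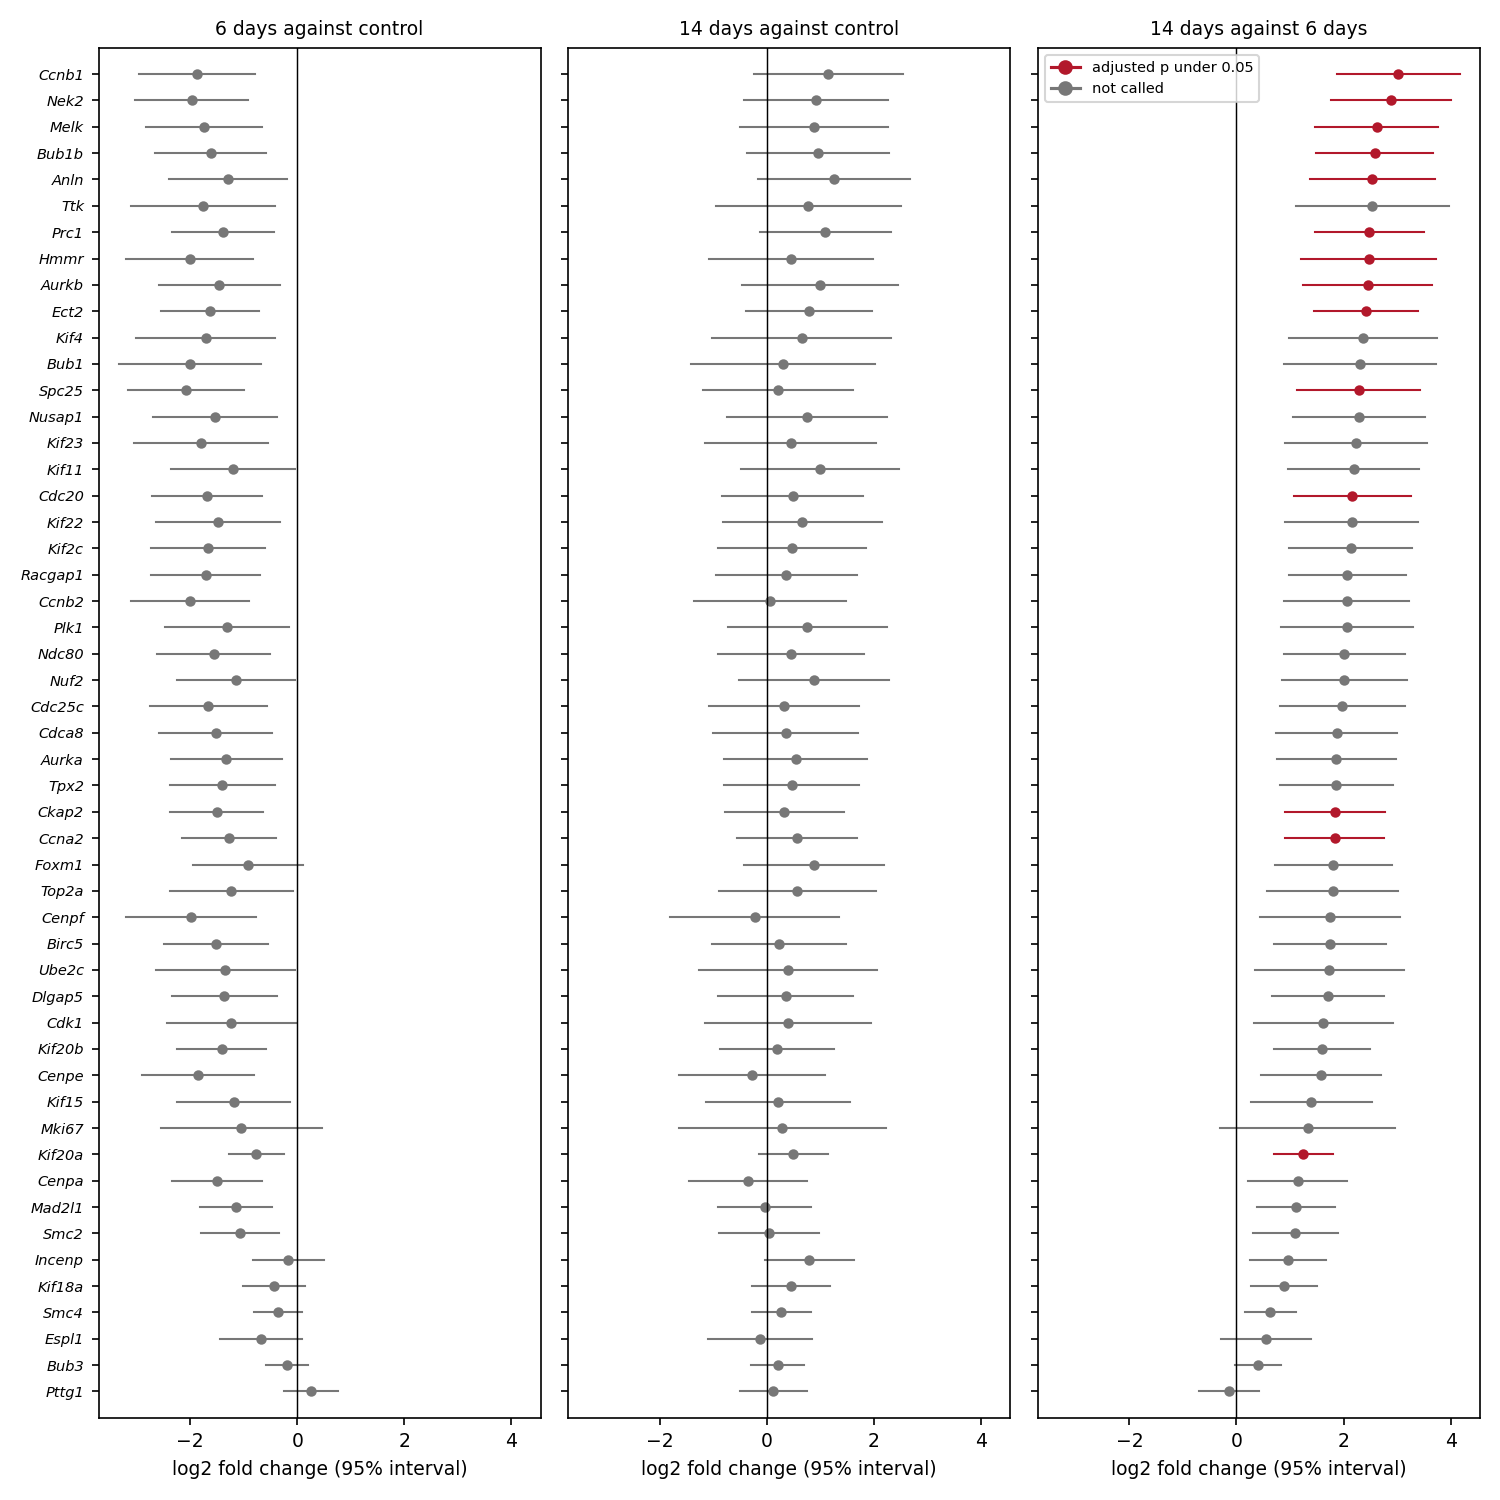
Log2 fold change of each member (points) with its 95% interval (lines) in the 3 comparisons between groups, in the order of the values at 14 against 6 days. Red marks the 14 genes called at an adjusted p under 0.05, all of them at 14 against 6 days; 50 of 51 points lie below 0 in the first panel and 50 of 51 above 0 in the last.

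Other genes of the cell cycle were set beside the members. Of 46 other mitosis genes, 44 had a lower mean at 6 days than in controls (median log2 fold change -1.31). EdgeR called 0 of them, with 31 at an unadjusted p under 0.05, against 12.7% of all genes. At 14 against 6 days 5 were called higher (2.14% of all genes were): Ckap2l, Ckap5, Ncapd3, Ncapg2 and Ncaph. The last 3 encode condensin subunits. Ncapg2 was also higher at 14 days than in controls, at 81.0 ± 37.0 CPM (SD, n = 3) against 32.4 ± 13.8 (n = 4), with an adjusted p of 0.0447 by edgeR's quasi-likelihood test. It was the only 1 of the 46 called in that comparison, where 6.6% of all genes were called.

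All 33 S-phase genes had a lower mean at 6 days than in controls, with a median log2 fold change of -0.64 against -1.45 for the mitosis genes. The difference between the lists was not tested. Of the 33, edgeR called 0, and 9 had an unadjusted p under 0.05, against 12.7% of all genes. Within range A 6 were called lower (1.59% of all genes were). Within range B all but 2 had a higher mean at 6 days (median 0.61). At 14 against 6 days 4 were called higher (2.14% of all genes were). They were the replication genes Mcm2, Mcm4 and Chaf1a and the nucleotide reductase gene Rrm1. The median over the list was 1.04, with 2 of 33 below 0. Against control at 14 days 8 of 33 were below 0 and the median was 0.37. The mean log2 level of the mitosis genes minus that of the S-phase genes was -0.25, -0.49, 0.30 and -0.03 in controls 1 to 4. It ran from -1.64 to -0.68 in the 6-day libraries of range A, from -0.51 to -0.38 in those of range B, and was 0.28, -0.39 and -0.15 at 14 days. The 6-day libraries of range A all lay below the controls of that range in this balance. Those of range B all lay below control 4, the only control of range B, while control 2 of range A lay among them.

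Of 19 MuvB, DREAM and E2F genes, which regulate this program, 14 had a lower mean at 6 days (median log2 fold change -0.26). At 6 days edgeR called 0, with 5 at an unadjusted p under 0.05, against 12.7% of all genes. Among the cell-cycle E2F genes, chosen for naming after their values were seen, the 6-day log2 fold change was -1.86 ± 0.77 (SE) for E2f7, -1.36 ± 0.55 for E2f1 and -1.17 ± 0.79 for E2f8. At 14 against 6 days these 3 differed 5.23-fold, 3.07-fold and 2.90-fold without being called. Lin54, the gene of the CHR-binding subunit, was 22.6 ± 3.51 CPM in controls, 22.99 ± 5.13 at 6 days and 45.3 ± 11.8 at 14 days (SD, n = 4, 8 and 3). EdgeR called it higher at 14 days against controls (adjusted p = 0.0260) and against 6 days (adjusted p = 0.0249). Against controls it was the only 1 of the 19 called, with 6.6% of all genes called. Against 6 days 2 of the 19 were called, Lin54 and Rbl1, with 3.89% of all genes called. Rbl1, which encodes the pocket protein p107, was called higher against 6 days (3.07-fold, adjusted p = 0.0174), and its 1.81-fold difference from control was not called (adjusted p = 0.188). Mybl2, the gene of B-MYB, was at 8.72 ± 3.90, 5.17 ± 3.01 and 13.5 ± 9.52 CPM and was not called.

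The 18 genes of the anaphase-promoting complex and cohesin core encode proteins that act in mitosis but are made through the whole cell cycle. Their median log2 fold change was -0.10 at 6 days. EdgeR called 0 of them there (1.26% of all genes), with 1 at an unadjusted p under 0.05, against 12.7% of all genes. At 14 days 4 of them were called against control (6.6% of all genes were). Anapc1 was higher (293 ± 12.7 CPM against 181 ± 19.5) and Anapc11, Anapc13 and Cdc26 were lower. Against 6 days Anapc1 and Fzr1 were called higher and Anapc13 lower (3.89% of all genes were called in either direction). The summed level of the 18 genes was 2155 to 2269 CPM in controls and 2030 to 2354 CPM at 6 days. At 14 days it was 2784, 2426 and 2544 CPM, so in this sum every 14-day library lay above all the others. Their mean log2 level did not separate the groups. It was 6.41 to 6.52 in controls, 6.36 to 6.53 at 6 days and 6.52, 6.41 and 6.46 at 14 days.

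The spans of 14 members overlap another listed gene in the RefSeq table, among them the called genes Anln, Ccna2, Cdc20, Ect2, Kif20a and Prc1. No source used here says whether counting used strand, so reads in such overlaps cannot be told apart. Cdc23, which overlaps Kif20a, was 1.61-fold higher at 14 than at 6 days without being called (adjusted p = 0.0761).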

How the data were processed

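PolyA RNA of sorted tumour cells was measured in 15 libraries. The deposited counts are uniquely aligned reads per gene model and the deposited RPKM values carry a size-factor adjustment, per the file headers. GSNAP and GRCm38 are named in the submitters' processing notes, and no version, annotation or strand setting is given in the sources used here. Names and coordinates came from a RefSeq table of GRCm38.p6, which matched 31049 of the 36528 identifiers. RPKM served only to order genes by level.

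The test of the counts was edgeR's quasi-likelihood F test (version 4.0.16, R 4.3.3) with TMM factors and filterByExpr, in 1 fit of 3 groups over 18751 genes, with 12 residual degrees of freedom and a common biological coefficient of variation of 0.579. A call is an adjusted p under 0.05 (Benjamini-Hochberg over every gene tested). Levels are TMM-scaled CPM, ± is the SD between libraries or the SE of a log2 fold change, and 95% intervals are 1.96 SE. A count of 3 corresponds to at most 0.11 CPM. Precision follows depth, from 27336935 to 256569828 counts. Every pair of libraries differed by more than sampling noise, with a chi-square of at least 56.76 per degree of freedom.

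Replicates were numbered in accession order. The code was tested on simulated data. Members and lists were chosen with earlier results of these data known. Named with values were 23 examples, every member called between groups or ranges, and the 3 lowest and 3 highest of each comparison; Smc2, Racgap1, Ube2c, Ccnb2, Nuf2 and Kif15 were named after their values were seen. Promoters of 9 members were not in the table, and of the called members 3 besides the examples are printed. Marker lists were for basal and suprabasal keratinocytes, fibroblasts, endothelium, myeloid, lymphoid, melanocyte and Schwann, sebocyte and red cells. The last 3 summed to 38.1 to 873.1, 155.7 to 376.3 and 0.202 to 3.04 CPM. The alternatives tried were DESeq2 1.42.0, RLE or upper-quartile factors, 2 other filters, fits of 2 groups, identifier ranges and each library left out.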

Additional observations from a re-analysis of the deposited data

How the results depend on the processing

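No paired analysis was possible because replicate numbers were given in accession order and pair no samples. Range B rests on 1 control, and the 14-day group on 3 libraries of 1 range. At 6 days against control the number of members called lower, 0 in the reported fit, was 15 with DESeq2, 6 without range B libraries, 10 within range A and 0 to 3 when 1 library was left out. The median log2 fold change was 0.23 within range B and -1.70 to -1.18 with 1 library left out. At 14 against 6 days the number called higher, 14 in the reported fit, was 9 with upper-quartile factors, 37 with DESeq2, 24 with range B as a covariate, 29 without range B libraries and 0 to 25 with 1 library left out. RLE factors gave 15 (402 of 18751 genes were called higher) and no filter on low counts 13 (312 of 27797). A mean of at least 1 CPM gave 17 (468 of 14837) and a fit of the 2 groups alone 12 (501 of 20033). Of all 18751 genes, upper-quartile factors called 270 higher and the reported fit 402. The members' median at 14 against 6 days was 1.19 to 2.29 with 1 library left out. At 14 days against control 0 members were called under every alternative run, and the median was -0.21 to 0.83 with 1 library left out. For the difference of the 6-day effect between ranges, DESeq2 called 5, leaving out 1 library gave 0 each time, with a median of 2.14 to 2.68, and control 4 could not be left out. In that difference DESeq2 also called more of all genes than edgeR did, so edgeR's share of all genes is no background for the DESeq2 count. Both counts rest on control 4, the only control of range B. The causes of these changes between settings were not tested, and a fit with libraries left out also held fewer libraries. TMM, RLE and upper-quartile scaling shifted the median of all genes by under 0.1 on the log2 scale.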
